A study of Mus musculus with 2 samples.

Results

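The small leucine-rich proteoglycans (SLRPs) are secreted proteins built around a run of leucine-rich repeats, most of them carrying glycosaminoglycan chains. The 7 members *Dcn*, *Lum*, *Bgn*, *Fmod*, *Ogn*, *Aspn* and *Prelp* were taken as a fixed list of gene symbols, with no measured value in the rule, and all 7 were among the 19550 genes of the deposited count table. SLRPs bind the surface of collagen fibrils in the extracellular matrix, where they limit lateral fibril growth and space the fibrils, and several of them also bind growth factors such as TGF-β. In the gut wall they are known as products of fibroblasts of the lamina propria, submucosa and serosa. Decorin (*Dcn*), biglycan (*Bgn*) and asporin (*Aspn*) form class I of the family, lumican (*Lum*), fibromodulin (*Fmod*) and PRELP (*Prelp*) form class II, and osteoglycin (*Ogn*) belongs to class III.

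Single-cell transcriptomes were measured in the esophagus, the gastroesophageal squamocolumnar junction (GE-SCJ) and the stomach of C57BL/6 wild-type mice. By the labels, tissue came from embryonic day 15 (E15, 6 mice), embryonic day 19 (E19, 2 mice), pups of day 2 (2 mice) and adults of 8 weeks (3 mice), and no group carried a treatment or an altered allele. The methods text speaks of 3 mice combined, and this disagreement was not resolved. The mice of a region and stage were pooled, dissociated with collagenase and marked with a lipid-bound CellPlex tag, so each of the 11 region and stage groups was 1 pooled sample and no difference below has a replicate check. The single library held 7808 cells with 107865155 UMIs (unique molecular identifiers, 1 per captured RNA molecule), 143 to 1403 cells and 2302227 to 20070615 UMIs per group. The adult stomach was not analysed here.

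The cell labels were those deposited by the authors, who had clustered the cells on their expression, so differences between labels describe the clusters and were not tested. Stromal (3442 cells), Smooth Muscle (1027 cells) and Stromal-2 (139 cells) are the 3 mesenchymal labels. In 10 groups of at least 20 Stromal cells, 5 fibroblast markers (*Col1a1*, *Col1a2*, *Col3a1*, *Pdgfra*, *Postn*) summed to 10292.5 to 39011 CPM (UMIs of a gene per 1000000 UMIs of the group), against 3320 to 9632 CPM in Smooth Muscle cells. The 6 smooth muscle markers summed to 22793.5 to 53395 CPM in Smooth Muscle cells and to 421 to 2528 CPM in Stromal cells. Stromal-2 cells stood apart from Stromal cells by 5 mesothelial markers (*Upk3b*, *Wt1*, *Msln*, *Lrrn4*, *Upk1b*), at 1890 and 3071 CPM in its 2 groups of at least 20 cells, against 2.24 to 12.6 CPM in Stromal cells. This sum was not particular to Stromal-2, since it was 3256 CPM in the 1 Squamous Epithelial-2 group of at least 20 cells. The median Stromal cell held 9025 to 10573 UMIs before birth, 3859 to 5073 in pups and 4906 in the adult esophagus. Percentages of cells with a UMI are therefore given below after thinning each cell to the same depth, unless marked as unthinned or at own depth. Positive cells given as a number out of a group are unthinned and not matched for depth between groups or labels.

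The 7 genes lie in 4 places of the mouse genome (GRCm38, GENCODE annotation). *Dcn* (chr10:97479609-97518143, + strand) and *Lum* (chr10:97565128-97572703, +) are neighbours with a gap of 47.0 kb, followed by the SLRP genes *Kera* and *Epyc*. *Aspn* (chr13:49544443-49567565, +) and *Ogn* (chr13:49608046-49624501, +) are 40.5 kb apart with *Omd* between them and *Ecm2* 11.7 kb before *Aspn*. *Prelp* (chr1:133910304-133921414, -) and *Fmod* (chr1:134037254-134048277, +) are 116 kb apart, and *Bgn* (chrX:73483602-73495933, +) stands alone. The first of the following RefSeq sequences (GRCm38.p6) are those before the starts of *Aspn* and *Ogn*, shown because these neighbours went different ways from E15 to pup in the esophagus, and the last is that of *Bgn*, whose base composition differed most from them. Each is 250 bases long and ends just before the annotated start, at chr13:49544193-49544442 (+), chr13:49607765-49608014 (+) and chrX:73483351-73483600 (+). Capitals mark the letters of a TATA box, TATAAA, or of a GC box, GGGCGG, on either strand.
Aspn: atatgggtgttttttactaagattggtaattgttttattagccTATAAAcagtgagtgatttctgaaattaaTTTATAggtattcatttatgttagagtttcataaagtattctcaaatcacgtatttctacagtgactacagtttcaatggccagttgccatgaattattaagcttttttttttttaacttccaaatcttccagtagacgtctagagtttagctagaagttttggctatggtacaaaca
Ogn: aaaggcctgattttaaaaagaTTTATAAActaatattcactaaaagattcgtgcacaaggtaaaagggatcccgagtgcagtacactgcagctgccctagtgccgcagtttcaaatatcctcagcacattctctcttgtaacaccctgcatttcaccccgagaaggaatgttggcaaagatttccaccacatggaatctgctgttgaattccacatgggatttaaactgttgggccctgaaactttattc
Bgn: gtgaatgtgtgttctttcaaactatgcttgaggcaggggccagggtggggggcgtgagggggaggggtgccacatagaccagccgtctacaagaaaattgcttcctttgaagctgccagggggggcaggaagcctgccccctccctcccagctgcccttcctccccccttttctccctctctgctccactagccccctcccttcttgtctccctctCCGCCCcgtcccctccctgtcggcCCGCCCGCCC

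With 50 further bases after the start, the *Aspn* window held 31.0% G and C, that of *Ogn* 42.3% and that of *Bgn* 63.7%, against a median of 52.7% over all 32851 windows of the reference table. TATAAA occurred on either strand in 13.6% of those windows, at 2 positions in *Aspn* (-207 and -178 from the start) and at 2 overlapping positions in *Ogn* (-229 and -227). GGGCGG occurred in 35.7% of the windows and at 3 positions in *Bgn*, the nearest pair of which overlap (-10 and -6). *Fmod* and *Prelp*, the other members with a window among 5 of 7, held neither. The E-box letters CANNTG occurred in all 5 windows and in 72.3% of the table, while the AP-1 letters TGANTCA (7.81% of the table) and the CArG box (1.63%) were in none of the 5. Such matches describe these windows only.

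The family belonged largely to the Stromal label. Of 211255 UMIs of the 7 genes, 89.3% were in Stromal cells, which held 30.1% of all UMIs. The share was highest for *Lum* (93.7% of 33027 UMIs) and *Dcn* (92.1% of 121509), followed by *Aspn* (84.7% of 20401) and *Bgn* (81.9% of 17877). *Ogn* was more widely spread, with 75.6% of its 17519 UMIs in Stromal cells and 18.0% in Smooth Muscle cells. *Prelp* and *Fmod* were scarce, with 67.3% of 594 UMIs and 52.7% of 328 UMIs in Stromal cells, and Stromal-2 cells held 25.9% of the *Fmod* UMIs. The counts come from the 3′ ends of transcripts and do not scale with transcript length, and all levels below are CPM of summed UMIs with exact 95% Poisson intervals that cover counting error only.

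**Figure D1:**
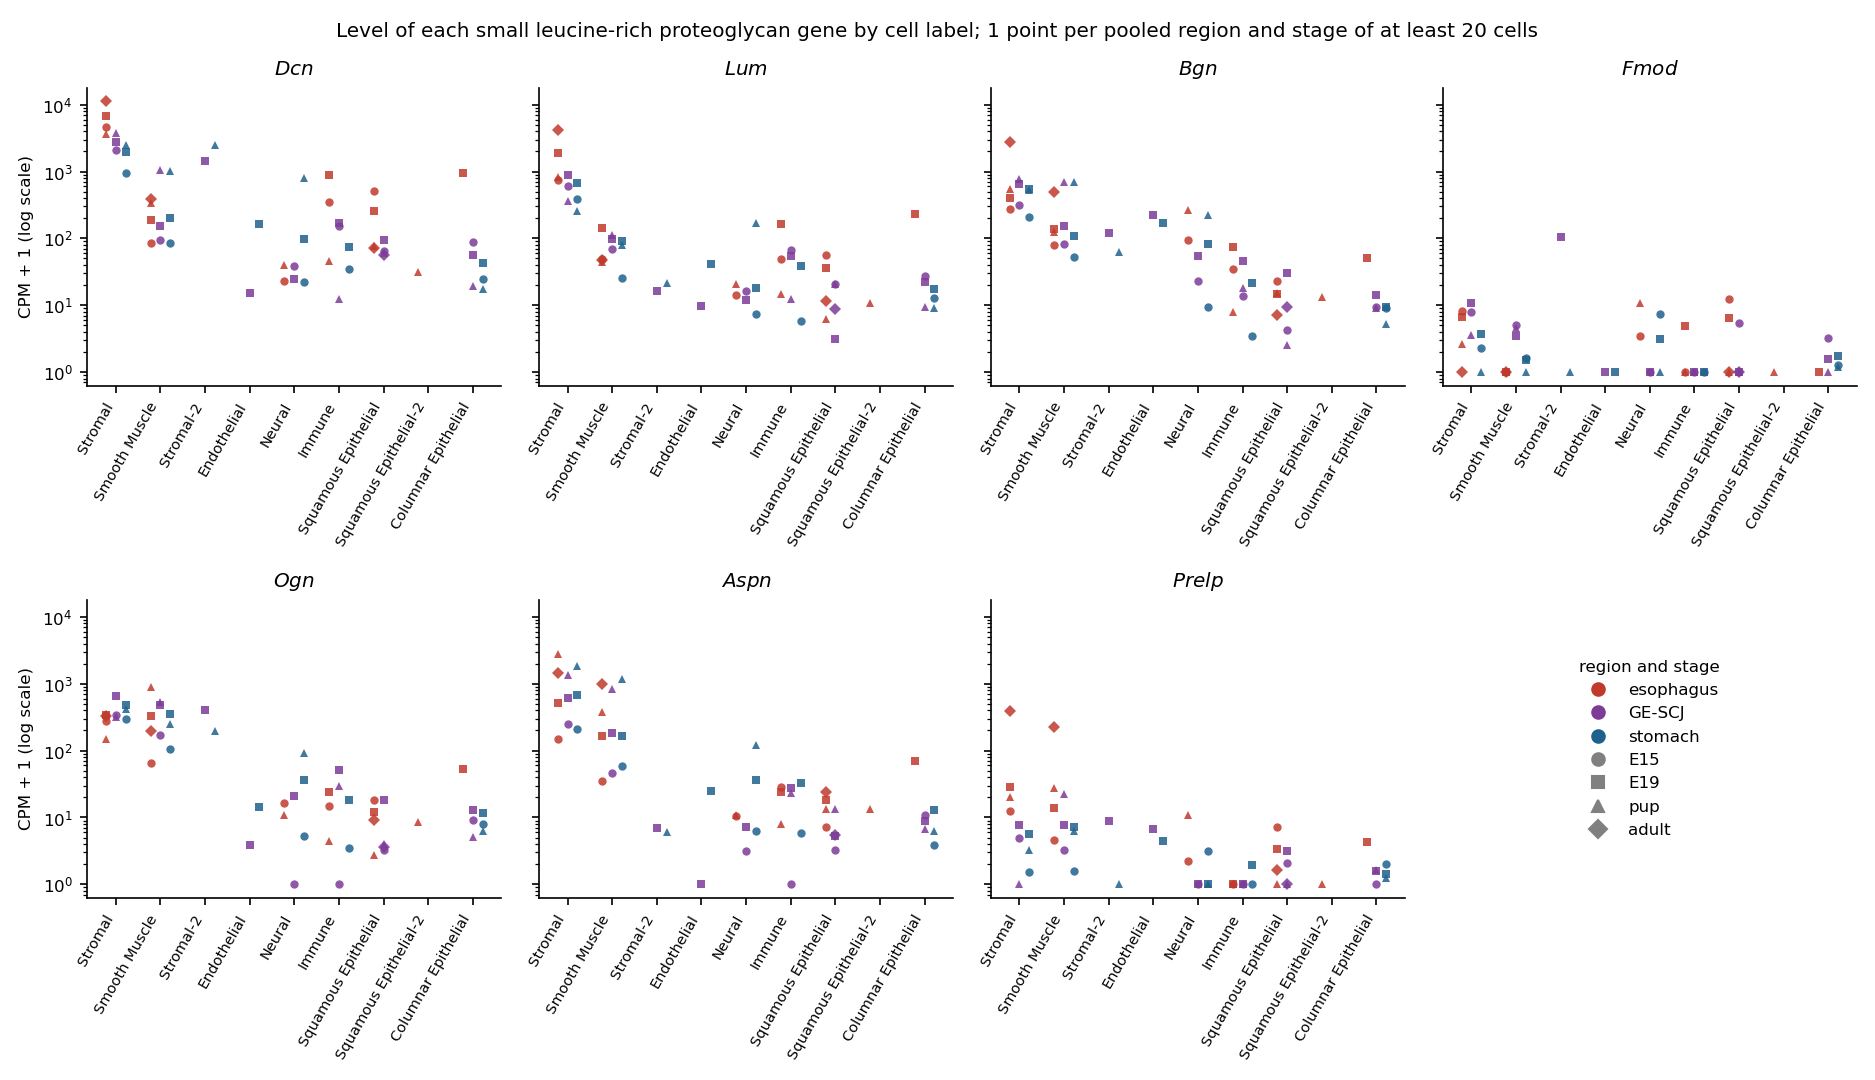
Level of each SLRP gene (CPM of summed UMIs, log axis) by deposited cell label, with 1 point per region and stage group of at least 20 cells. *Dcn* was at 934 to 11339 CPM in Stromal groups and at 83.5 to 1045 CPM in Smooth Muscle groups, while *Fmod* and *Prelp* stayed low in most groups.

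Over all groups, *Dcn*, *Lum*, *Bgn*, *Ogn* and *Aspn* were detected in smaller shares of non-mesenchymal than of Stromal cells, and some group levels rested on few cells. The scarce members did not all follow this. Unthinned, *Prelp* was in 9.55% of Endothelial and 8.02% of Stromal cells. *Fmod* in the E15 esophagus was in 14.1% of Squamous Epithelial and 6.05% of Stromal cells (9 and 21 cells). After thinning to 5000 UMIs, *Dcn* had a UMI in 17.0% of immune cells and 15.1% of epithelial cells, against 91.8% of Stromal cells, and *Aspn* in 5.93% and 3.74%, against 58.0%. In the E19 esophagus the 38 Immune cells reached 894 CPM of *Dcn*, but 209 of their 234 UMIs came from 3 cells. Similarly, 77 of the 81 *Dcn* UMIs of the 20 Neural cells of the pup stomach came from 1 cell. Other groups had them in most cells, such as the Squamous Epithelial cells of the E15 esophagus (505 CPM, 44 of 64 cells) and the Columnar Epithelial cells of the E19 esophagus (937 CPM, 15 of 20 cells), with 199 of 496 and 321 of 567 UMIs in 3 cells. These cells were not thinned and held a median of 14214 and 28827 UMIs. The same Columnar cells had 231 CPM of *Lum*, against 8.06 to 26.4 CPM in the other Columnar groups of at least 20 cells. Fibroblast markers summed to 200 to 4639 CPM over the Columnar groups, with a median of 382 CPM. The part of fibroblast RNA or of doublets was not tested. *Bgn*, which is also known from vessel walls, was at 169 and 222 CPM in the 2 Endothelial groups of at least 20 cells, where *Lum* was at 8.65 and 40.6 CPM. It was also at 262 CPM in the Neural cells of the pup esophagus, in 14 of 24 cells.

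*Dcn*, which binds fibrillar collagen and TGF-β, was higher in esophageal than in stomach fibroblasts at every stage measured in both. Its Stromal level at E15 was 4644 CPM (4576 to 4713) in the esophagus, 2071 CPM (2025 to 2117) in the GE-SCJ and 934 CPM (904 to 965) in the stomach. At E19 the same regions had 6728, 2752 and 1989 CPM, and in pups 3603, 3813 and 2466 CPM. The adult esophagus had the highest level, 11339 CPM (10826 to 11870; 31 cells). The order of regions at E15 and E19 was esophagus, GE-SCJ, stomach, with no overlap of intervals, whereas pup esophagus and pup GE-SCJ differed by less than counting error (log2 GE-SCJ over esophagus 0.08, interval -0.01 to 0.18). Over stage, *Dcn* in the stomach was higher in pups than at E15 by 1.40 on the log2 scale (1.30 to 1.50) and in the esophagus lower by 0.37 (log2 -0.37, -0.43 to -0.30). The stomach difference lay in the amount per cell more than in the share of cells: at 5000 UMIs per cell, 72.3% (67.1 to 77.1) of E15 and 77.3% (62.2 to 88.5) of pup stomach fibroblasts had a *Dcn* UMI, with means of 4.61 and 13.2 UMIs. Of the 78 pup cells, 44 reached that depth. Unthinned, the E15 and pup shares were 76.1% and 74.4%.

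*Aspn*, the aspartate-rich class I member that is known to bind collagen and to restrain TGF-β signalling, had the steepest course of the family between E15 and pups among the 5 members with at least 100 UMIs over both sums. Its esophageal level was 147 CPM (135 to 160) at E15 and 509 CPM at E19, and pups had 2801 CPM (2672 to 2935) and adults 1467 CPM (1286 to 1666). In the GE-SCJ it was at 248, 622 and 1334 CPM, and in the stomach at 212, 668 and 1839 CPM, at E15, E19 and in pups. The log2 ratio of pups over E15 was 4.25 (4.11 to 4.39) in the esophagus, 2.43 (2.27 to 2.59) in the GE-SCJ and 3.12 (2.98 to 3.26) in the stomach. Each step up to the pup stage was above 2-fold, the smallest being pup over E19 in the GE-SCJ (log2 1.10). Both the share of cells and the amount per cell were higher. At 5000 UMIs, 28.0% of E15, 60.3% of E19 and 94.1% of pup esophageal fibroblasts had an *Aspn* UMI, with means of 0.689, 2.59 and 10.4 UMIs, and at their own depth the shares were 38.3%, 65.5% and 97.4%. Only 34 of 151 pup cells reached that depth, but at 2000 UMIs, reached by 139 of them, the pup share was 94.2% and the E15 share 18.3%.

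*Bgn*, a fibril-binding class I proteoglycan that is also known as a ligand of Toll-like receptors, was higher after E15 in each region. In the stomach it was at 205 CPM (191 to 220) at E15, 548 at E19 and 529 in pups. In the GE-SCJ it was at 320, 658 and 772 CPM. In the esophagus it was at 278 CPM (262 to 296), 404 CPM and 538 CPM, with 2779 CPM (2528 to 3048) in the adult. Of the pup esophageal UMIs, 100 of 338 were in 3 of 151 cells. Without these cells 394 CPM (345 to 447) remained, so the step from E19 to pups there rested on few cells. In the adult, 198 of 449 UMIs were in 3 of 31 cells, and 1919 CPM (1689 to 2172) remained without them. Most of the stomach difference was in place by E19, since pup over E19 there was -0.05 on the log2 scale (-0.25 to 0.14).

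*Lum*, a keratan sulfate proteoglycan known for the spacing of corneal fibrils, was highest at E19 among the stages up to pups, in all 3 regions. Its Stromal level went from 739 to 1903 to 815 CPM in the esophagus, from 615 to 880 to 356 CPM in the GE-SCJ and from 382 to 677 to 258 CPM in the stomach over E15, E19 and pups. Pups were lower than E19 in that order of regions, with log2 ratios of -1.22 (-1.35 to -1.10), -1.30 (-1.56 to -1.06) and -1.38 (-1.67 to -1.13). The adult esophagus was again highest, at 4159 CPM (3851 to 4486). At E15 and E19 *Lum* shared the order esophagus, GE-SCJ, stomach with its neighbour *Dcn*, and in pups *Lum* kept this order while *Dcn* did not. The *Dcn* difference between stomach and esophagus was smaller in pups than at E15 (log2 -0.55 and -2.31), while that of *Lum* was larger (log2 -1.65 and -0.95).

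*Ogn*, a class III member first known from bone, was also highest at E19 in each region up to the pup stage. It was at 276, 342 and 148 CPM in the esophagus, at 345, 646 and 323 CPM in the GE-SCJ and at 292, 480 and 412 CPM in the stomach, where pup over E19 was only -0.21 on the log2 scale. *Ogn* in pups was 1.47 higher in the stomach than in the esophagus on the log2 scale (184 and 93 UMIs), the opposite direction to *Dcn* and *Lum*. Of these UMIs, 56 in the stomach and 25 in the esophagus were in 3 cells of the group. At E15 the regions differed little, with a log2 ratio of 0.08 for stomach over esophagus. The adult esophagus had 328 CPM (246 to 429), from 11 of 31 cells.

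*Prelp* and *Fmod*, class II members known from cartilage and tendon, were the scarcest members in fetal and pup fibroblasts. In the esophagus *Prelp* had 11.5 CPM at E15, 27.2 CPM in E19 cells and 19.1 CPM in pup cells (44, 190 and 12 UMIs), and in the stomach 0.524 to 4.69 CPM. In the adult esophagus it reached 396 CPM (305 to 506) from 64 UMIs in 22 of 31 cells. Pup GE-SCJ fibroblasts had 0 *Prelp* UMIs, where 3 counts would have been 7.62 CPM. *Fmod* was at 5.59 to 9.62 CPM in the esophagus and GE-SCJ before birth and at 1.31 and 2.72 CPM in the stomach. After birth it had 0 or 1 UMI in every Stromal group of at least 20 cells, where 3 counts would have been 4.78 to 18.6 CPM. No change with stage could therefore be read for it.

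**Figure D2:**
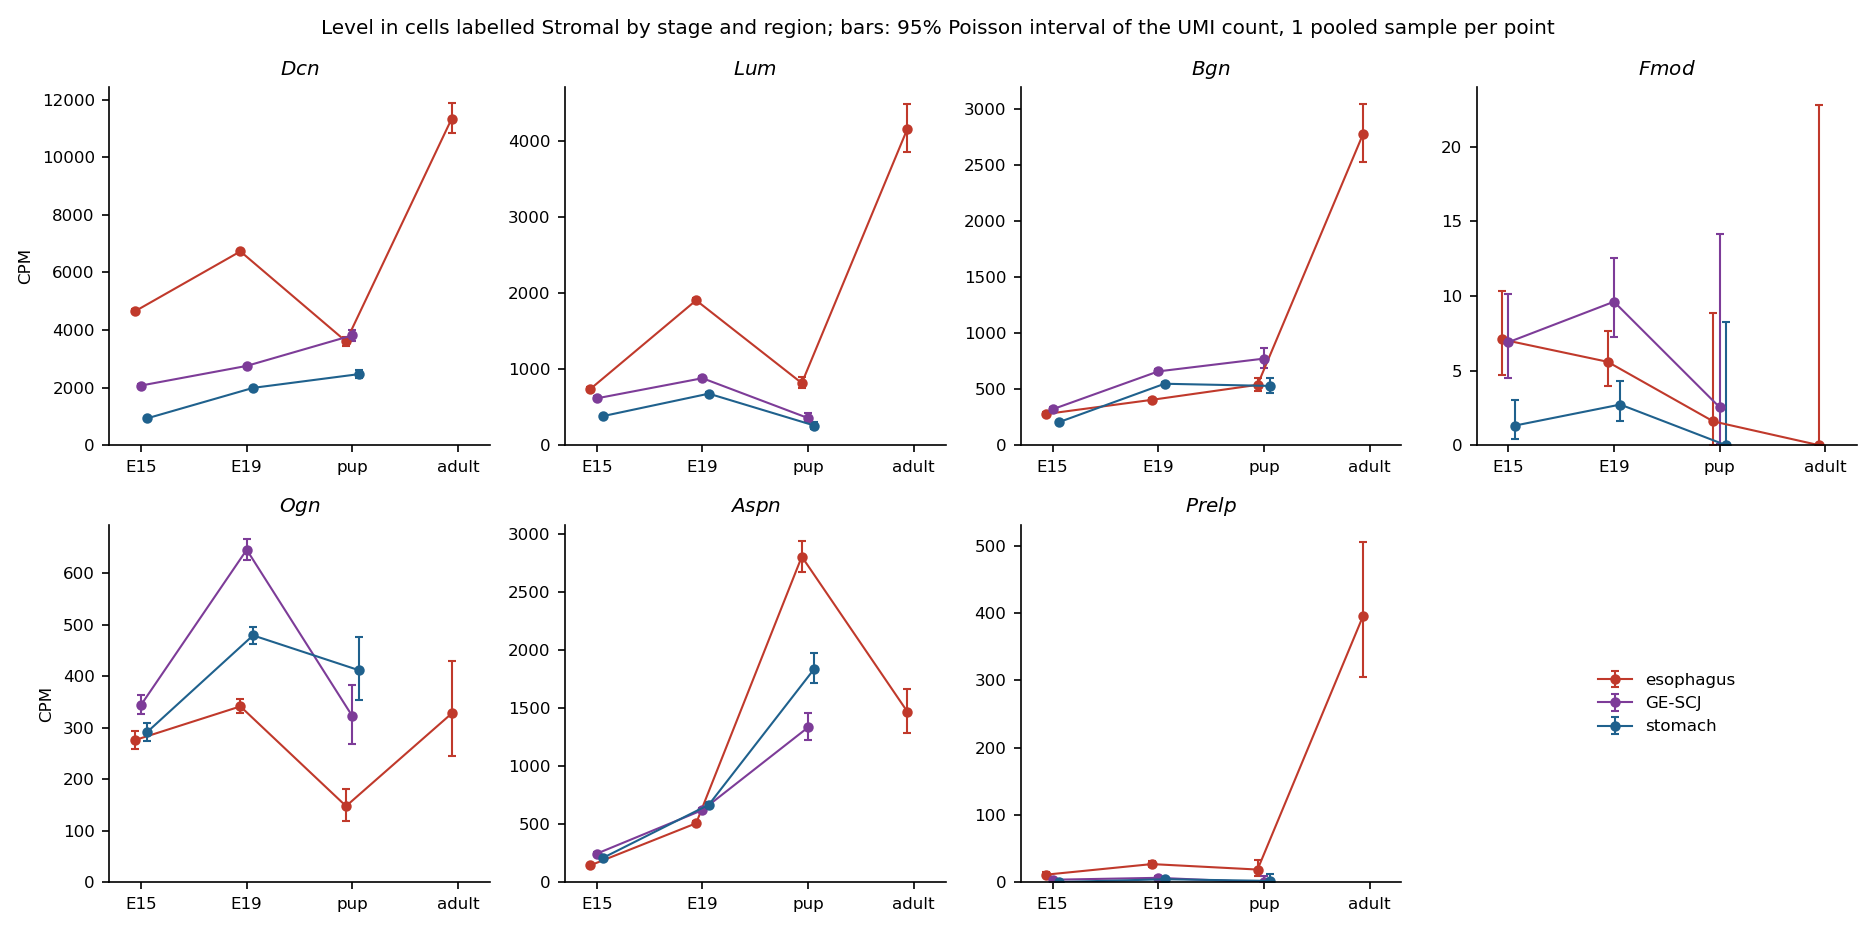
Level of each SLRP gene in Stromal cells (CPM of summed UMIs) against stage, 1 line per region, with exact 95% Poisson intervals as bars. *Aspn* in the esophagus went from 147 CPM at E15 to 2801 CPM in pups, while *Lum* was highest at E19 in each region before the adult stage.

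Across all genes with at least 100 UMIs over both sums, 2-fold differences between stages were common, and the members were read against them. In the esophagus, 8.84% of 6361 genes were at least 2-fold higher in pups than at E15 and 12.0% at least 2-fold lower; of the 5 members with enough UMIs, *Aspn* was higher and 0 were lower. In the GE-SCJ the shares of all genes were 7.89% and 12.8%, and 2 of 5 members (*Aspn*, *Bgn*) were higher and 0 lower. In the stomach they were 6.88% and 10.5%, and 3 of 5 (*Aspn*, *Dcn*, *Bgn*) were higher and 0 lower. The median log2 ratio of the members was 0.14, 0.88 and 1.37 in these regions, against -0.12, -0.13 and -0.14 over all such genes. From pup to adult esophagus, 7.73% of 1268 genes were higher and 13.0% lower; 4 of 5 members (*Dcn*, *Lum*, *Bgn*, *Ogn*; log2 1.65, 2.35, 2.37 and 1.16) were higher, and *Aspn* had a log2 ratio of -0.93. The *Ogn* difference rested on few cells, with 38 of its 53 adult UMIs in 3 of 31 cells, and without the 3 cells richest in *Ogn* in each group 107 CPM remained in the adult and 113 CPM in the pup. Treated alike, *Dcn*, *Lum* and *Bgn* had log2 ratios of 1.66, 2.28 and 2.29, and *Aspn* -1.31. Pup and adult cells also held fewer UMIs than fetal cells, and the part of depth in these differences was not tested beyond the thinned shares given above.

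Between regions, the differences past 2-fold were mostly toward the esophagus, while smaller ones went both ways. At E19 the stomach was higher in *Bgn* (log2 stomach over esophagus 0.44, 0.37 to 0.51), *Aspn* (0.39, 0.33 to 0.46) and *Ogn* (480 against 342 CPM). At E15 it was higher in *Aspn* (0.52, 0.37 to 0.68) and lower in *Bgn* (-0.44) and *Lum* (-0.95). Stomach over esophagus, 2.45% of 8450 genes were at least 2-fold higher and 2.59% lower at E15, where 1 of 5 members was lower (*Dcn*, log2 -2.31) and 0 were higher. At E19, 4.11% of 10009 genes were higher and 3.05% lower, and 3 of 6 members were lower: *Dcn* (-1.76), *Lum* (-1.49) and *Prelp* (-2.50, 31 and 190 UMIs). *Prelp* reached the minimum of 100 UMIs only through its 190 esophageal UMIs and was below it at E15 and in pups. Its place in this count is therefore not read as a result. In pups, 2.08% of 1830 genes were higher and 3.33% lower, with *Ogn* higher and *Lum* lower among 5 members. The E15 and pup sums of the esophagus and stomach enter both these ratios and those of pups over E15, so the 2 sets of values are not independent. The summed fibroblast markers moved with region as well, at 23870 CPM in the E15 esophagus and 10292.5 CPM in the E15 stomach, and at 24071 and 20707 CPM in pups.

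Within each of the 10 groups that held at least 20 cells of both labels, *Dcn* and *Lum* were at least 2-fold higher in Stromal than in Smooth Muscle cells. Of 440 genes with enough UMIs in all 10 groups, 3.64% were 2-fold higher in each and 5.45% 2-fold lower in each, and of the 4 members among them 2 were higher and 0 lower. The paper names *Dcn* and *Lum* among its fibroblast marker genes, and the labels rest on expression. These counts therefore describe the labels and are no separate result about the family. The log2 ratio ranged from 1.29 to 5.76 for *Dcn* and from 1.67 to 6.31 for *Lum*. *Bgn* passed 2-fold in 8 of 10 groups and *Aspn* in 7 of 10. *Ogn*, with 86 or more UMIs in each group, passed it in 2 of 10, and in the pup esophagus it was lower in Stromal cells by 2.59 on the log2 scale (log2 -2.59): the 22 Smooth Muscle cells were at 890 CPM (726 to 1080) and the 151 Stromal cells at 148 CPM. Of the 102 *Ogn* UMIs of these Smooth Muscle cells, 45 were in 3 cells, and 15 of 22 cells had at least 1.

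**Figure D3:**
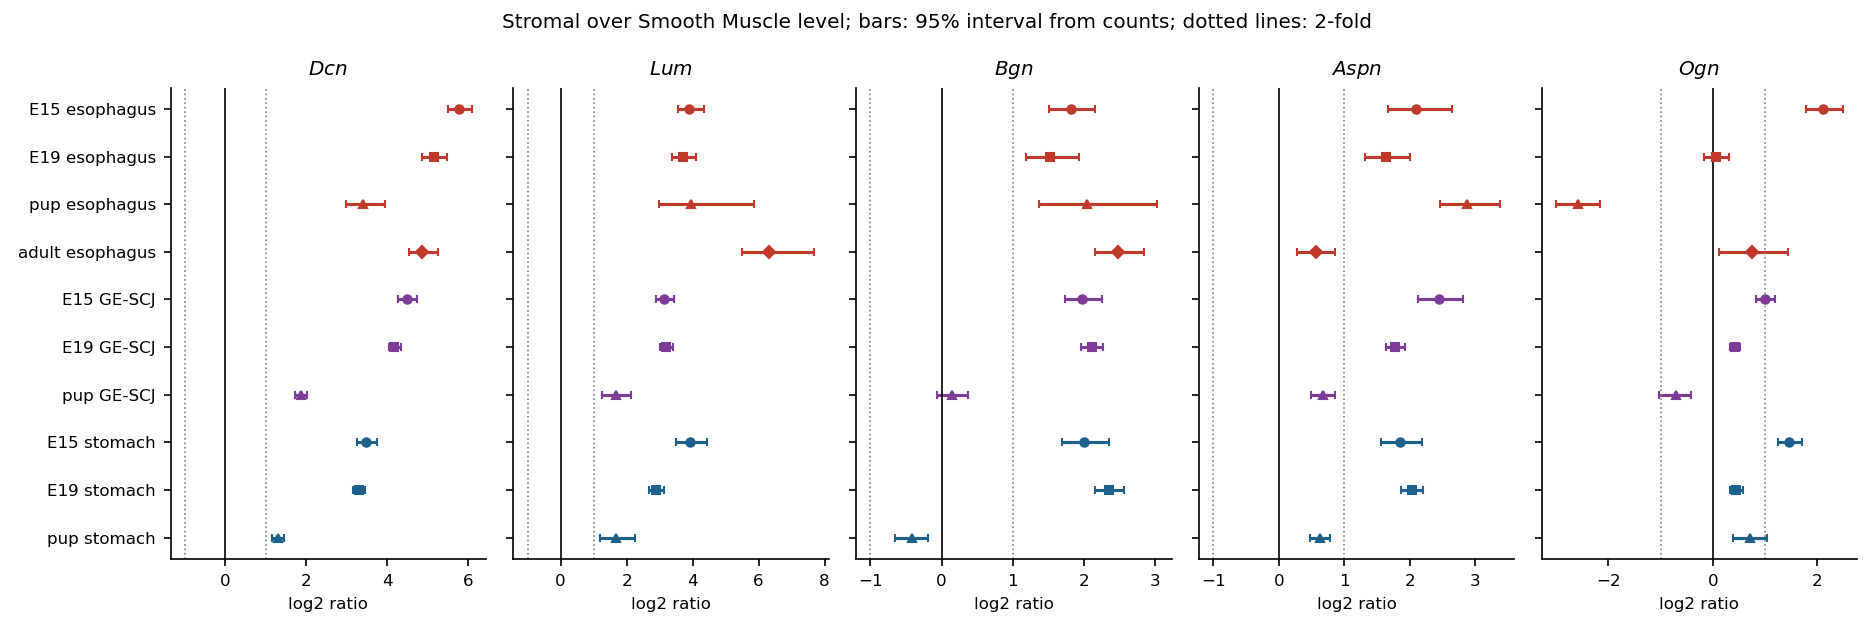
Log2 ratio of Stromal over Smooth Muscle cells for *Dcn*, *Lum*, *Bgn*, *Aspn* and *Ogn*, 1 point per region and stage group, with 95% intervals. *Fmod* and *Prelp* are not drawn. *Dcn* and *Lum* were above 1 in all 10 groups, while *Ogn* reached -2.59 in the pup esophagus, and its adult esophagus point rests on 86 UMIs.

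For *Dcn*, *Lum* and *Bgn* the smallest Stromal over Smooth Muscle ratios were those of the pup GE-SCJ and pup stomach, with log2 1.87 and 1.29 for *Dcn*, 1.67 and 1.69 for *Lum*, and 0.15 and -0.42 for *Bgn*. Those of *Aspn* were 0.68 and 0.63 there and 0.56 in the adult esophagus. Smooth Muscle cells of both pup groups held more *Dcn*, *Bgn* and *Aspn* than in any fetal group. *Dcn* in Smooth Muscle cells was at 92.4 CPM at E15 and 1045 CPM (962 to 1132) in pups in the GE-SCJ, and at 83.5 and 1009 CPM in the stomach. *Bgn* there went from 80.8 to 695 CPM and from 50.8 to 708 CPM, and *Aspn* from 45.0 to 832 CPM and from 58.1 to 1186 CPM. The *Dcn* UMIs were in many cells: at 5000 UMIs, 67.4% of pup GE-SCJ and 73.5% of pup stomach Smooth Muscle cells had one, against 23.3% and 16.7% at E15. Only 43 of 119 and 49 of 113 pup cells reached that depth. At their own depth the shares were 79.0% and 75.2% in pups, against 43.5% and 36.0% at E15. Fibroblast markers in these pup groups summed to 8607 and 9632 CPM, against 3320 to 4696 CPM in the other 8 Smooth Muscle groups, with smooth muscle markers at 25231 and 22793.5 CPM against 30359 to 53395. Pericyte markers were at 934 and 2171 CPM there, against 175 to 257 CPM in the fetal groups. In cells of these groups without a UMI of the fibroblast gene *Pdgfra* (78 of 119 and 73 of 113 cells), *Dcn* was at 902 and 799.9 CPM, *Bgn* at 482 and 477 CPM and *Aspn* at 923 and 1205 CPM. The part of fibroblast RNA or of pericytes in these levels was not tested further.

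Stromal-2 cells shared *Dcn* and *Ogn* with the Stromal label and held little *Lum* and *Aspn*. In the E19 GE-SCJ (46 cells) and the pup stomach (27 cells), *Dcn* was at 1457 and 2491 CPM and *Ogn* at 411 and 199 CPM. *Lum* was at 15.6 and 20.4 CPM and *Aspn* at 5.84 and 5.09 CPM, from 8, 4, 3 and 1 UMIs. *Bgn* was found in 29 of 46 cells in the E19 GE-SCJ, at 121 CPM (92.6 to 155) against 658 CPM in Stromal cells, while 7 of 27 cells had it in the pup stomach (61.1 CPM). *Fmod* was the member that was higher here than in Stromal cells, with 103 CPM (77.3 to 135) from 53 UMIs in the E19 GE-SCJ, where Stromal cells had 9.62 CPM. It had 0 UMIs in the pup stomach, where 3 counts would have been 15.3 CPM.

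The make-up of the family differed by region and stage. *Dcn* took 44.8 to 76.1% of the family's UMIs in Stromal groups, and in the esophagus E15 cells had 76.1%, E19 cells 67.8% and pup cells 45.5%. In the same groups *Aspn* took 2.41% (2.22 to 2.62), 5.13% and 35.3% (34.0 to 36.7). The stomach had 10.5%, 15.3% and 33.4% *Aspn*, and the GE-SCJ 6.86%, 11.2% and 20.2%, so that in pups the esophagus and stomach were close and the GE-SCJ lower. The adult esophagus had 7.17% *Aspn*, 20.3% *Lum* and 13.6% *Bgn*, and its summed family level was the highest, at 20468 CPM against 2027 to 9919 CPM in the other Stromal groups. Smooth Muscle cells had another make-up, with *Ogn* at 49.8% in the pup esophagus and *Aspn* at 42.4% in the adult esophagus. The pup value rests on 22 cells, with 45 of the 102 *Ogn* UMIs in 3 of them. Pericyte markers in the adult cells summed to 4020 CPM, and the part of pericytes was not tested.

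**Figure D4:**
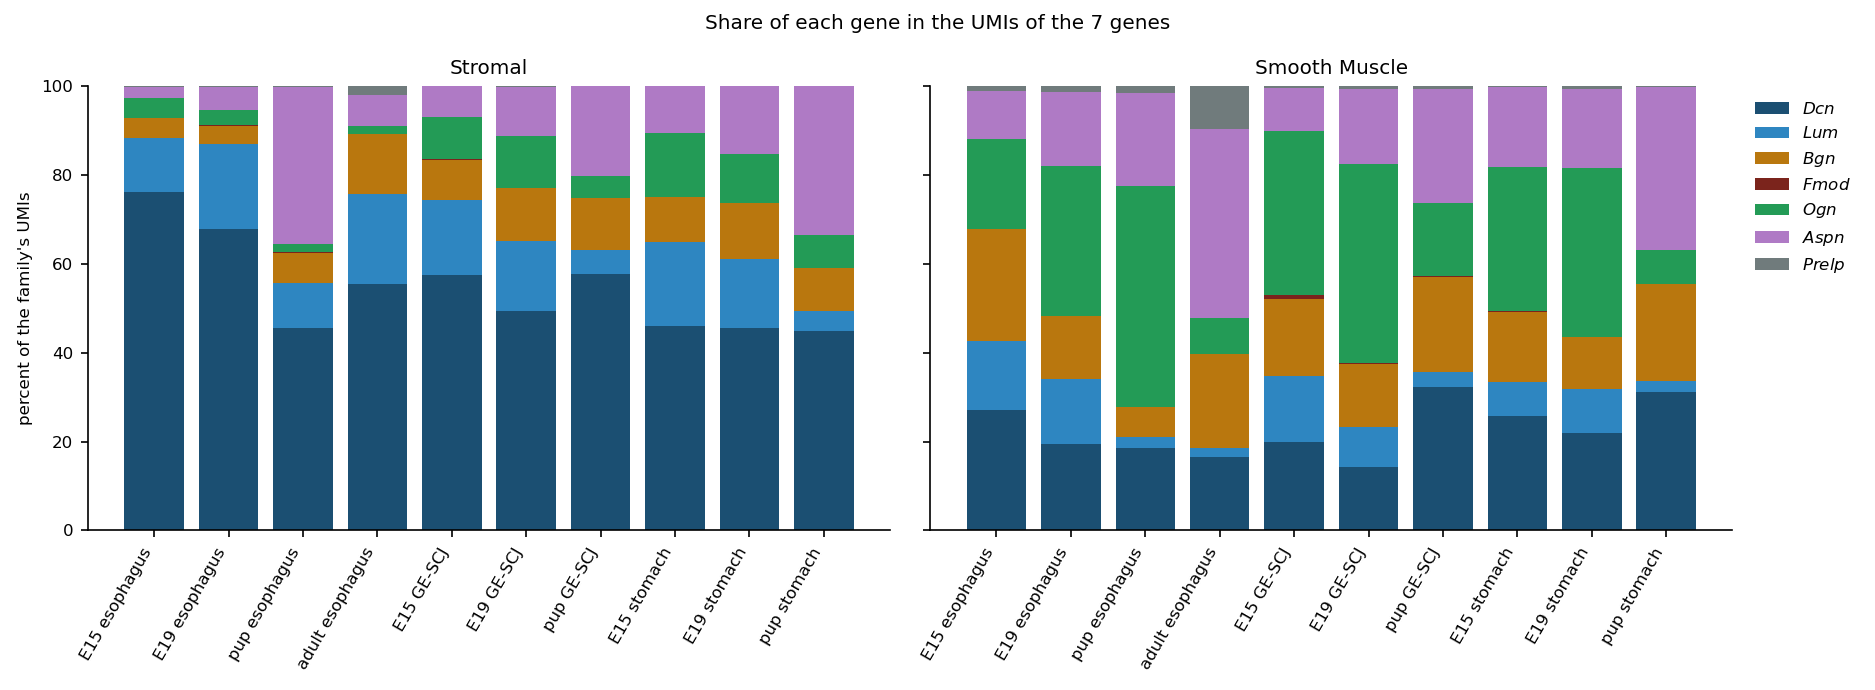
Share of each SLRP gene in the summed UMIs of the 7 genes, in percent, stacked per region and stage group of at least 20 cells. In Stromal cells of the esophagus *Aspn* went from 2.41% at E15 to 35.3% in pups, while *Dcn* took at least 44.8% in every Stromal group.

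In single Stromal cells thinned to 5000 UMIs, the median number of members with a UMI was 3 in the E15 esophagus and E15 stomach and 4 in the other 7 groups with cells of that depth. *Ogn* and *Aspn* were found together more often than the product of their shares at E15. In the E15 esophagus 21.4% of 322 cells held both, against a product of 14.4%, a ratio of 1.49. The ratio was 1.29 in the E15 GE-SCJ and 1.48 in the E15 stomach, 1.10 to 1.18 at E19, and 0.987 to 1.11 in pups, where *Aspn* was in most cells. Cells of 1 group share a library and a pool, so these ratios are descriptions.

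Fibroblast states, set by at least 2 UMIs of a list against none in fetal Stromal cells, separated the members. In cells with adventitial-type genes (*Pi16*, *Dpt*, *Cd34*, *Ly6a*, *Clec3b*, *Mfap5*), *Aspn* was higher by 1.02 to 2.15 on the log2 scale, *Ogn* by 0.95 to 2.23 and *Dcn* by 0.97 to 1.53, in 5 of 5 groups. *Lum* differed less (0.12 to 0.66) and *Bgn* had no common direction (-0.16 to 0.39). In cells with cycling genes (*Mki67*, *Top2a*, *Cenpf*, *Birc5*, *Ube2c*), *Ogn* was lower in 6 of 6 groups (-1.58 to -0.995), as was *Aspn* (-1.34 to -0.22), while *Dcn* (-0.43 to -0.23) and *Lum* (-0.30 to -0.04) differed little. For *Aspn* the direction in cells with contractile genes (*Acta2*, *Myh11*, *Tagln*, *Actg2*, *Cnn1*) varied between E19 regions, from -1.50 (-1.66 to -1.33) in the esophagus to 1.35 (1.07 to 1.66) in the GE-SCJ and 0.80 in the stomach. With subepithelial-type genes (*Bmp4*, *Wnt5a*, *Foxl1*, *Ptch1*, *Hhip*) it was -0.75 in the E19 esophagus and 0.70 in the E19 GE-SCJ. The difference between regions was not tested.

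**Figure D5:**
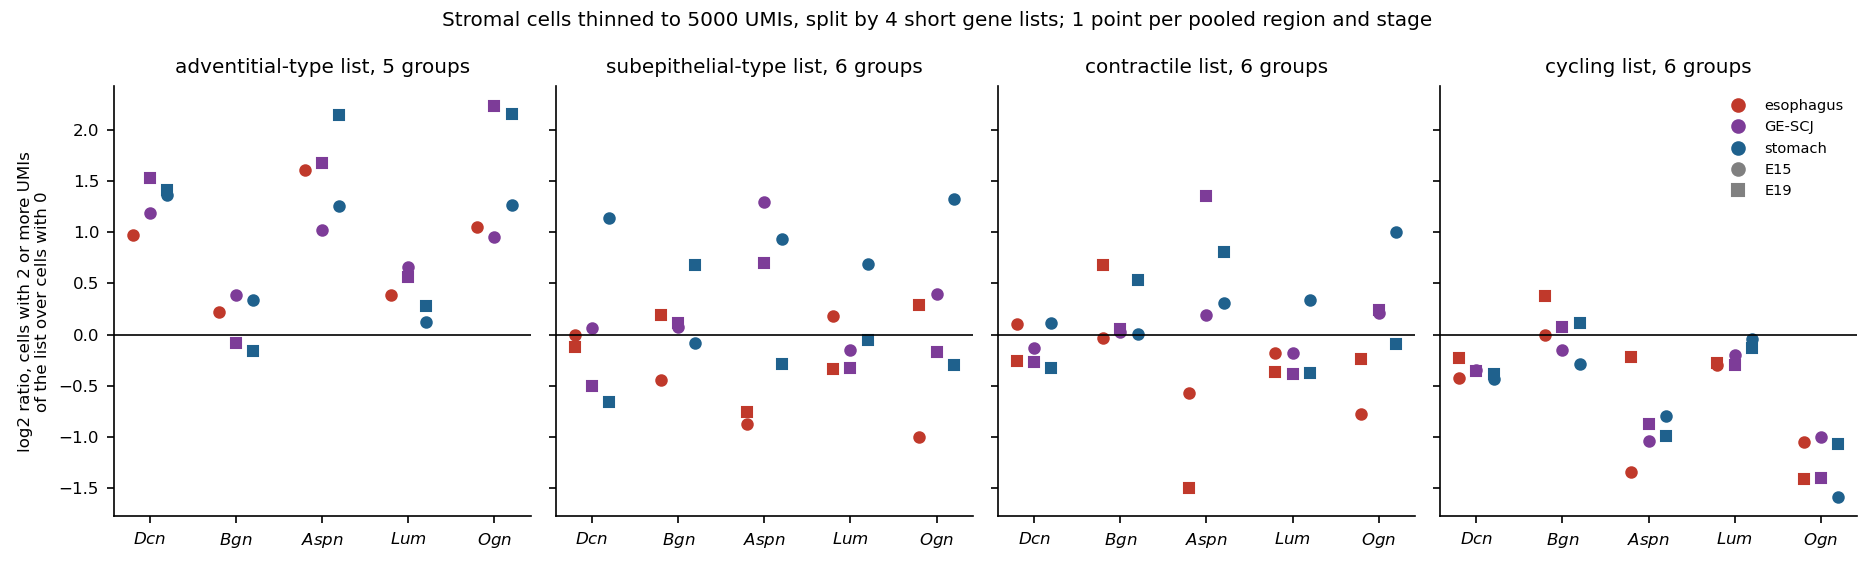
Log2 ratio of *Dcn*, *Bgn*, *Aspn*, *Lum* and *Ogn* in thinned fetal Stromal cells with at least 2 UMIs of a state list over cells with none. Each point is 1 region and stage group, drawn without an interval, and *Fmod* and *Prelp* are not drawn. *Aspn*, *Ogn* and *Dcn* were above 0 for the adventitial-type list in 5 of 5 groups, and *Ogn* was below 0 for the cycling list in 6 of 6.

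Other SLRP genes were scarce in most of these cells, and some differed by region, stage or label. Of 11 further family genes, 9 were in the table. *Chad* had the most UMIs of these (3463), but mostly outside the mesenchymal labels, at 74.6 CPM in Columnar Epithelial and 3.70 CPM in Stromal cells. *Chadl* was at 33.4 CPM in Neural and 1.57 CPM in Stromal cells. *Kera*, the keratan sulfate proteoglycan next to *Lum*, was at 37.0 and 90.4 CPM in esophageal Stromal cells at E15 and E19 and at 4.45 and 2.12 CPM in the stomach, with 0 UMIs in pup esophagus, where 3 counts would have been 4.78 CPM. *Ecm2*, the neighbour of *Aspn*, went from 5.51 to 20.9 to 177 to 545 CPM in Stromal cells over E15, E19, pup and adult esophagus. Over E15, E19 and pups it also went from 3.45 to 10.3 to 50.8 CPM in the GE-SCJ. In the stomach it went from 3.40 to 8.62 to 69.4 CPM, and adult esophageal Smooth Muscle cells had 175 CPM. With all groups of a label summed, *Ecm2* was at 18.0 CPM in Endothelial and 17.5 CPM in Stromal cells. *Optc*, the neighbour of *Prelp*, was at 41.7 CPM in Smooth Muscle cells against 1.94 CPM in Stromal cells. *Podn*, a collagen-binding member, was at 70.1 and 183 CPM in the Stromal-2 groups and at 109 and 102 CPM in pup GE-SCJ and stomach Smooth Muscle cells.

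The genes that SLRPs work with were read from fixed lists. Of all genes with enough UMIs, 8.84% were at least 2-fold higher in pup than in E15 esophagus, 7.89% in the GE-SCJ and 6.88% in the stomach. In the same order, 12.0%, 12.8% and 10.5% were at least 2-fold lower. The lists are short, so counts near these shares are not read as results about a list. Of 13 collagens, at least 12 had enough UMIs in each ratio of pups over E15, with 2 higher and 2 lower in the esophagus, 4 and 1 in the GE-SCJ, and 4 and 1 in the stomach. *Col11a1*, which nucleates fibrils, was lower in all 3 regions (log2 -1.30, -2.61 and -1.51), and *Col3a1* was higher in the GE-SCJ and stomach (1.42 and 1.26). Of 18 processing and crosslinking enzymes, 10 or 11 had enough UMIs, with 2 higher and 2 lower in the esophagus, 4 and 1 in the GE-SCJ, and 3 and 1 in the stomach. *Loxl1*, a crosslinking enzyme, was higher in the esophagus, GE-SCJ and stomach of pups by 2.55, 2.37 and 2.77 on the log2 scale, and *Adamts2*, a procollagen protease, by 1.36, 2.09 and 1.69. *P4ha1*, a subunit of collagen prolyl hydroxylase, was lower in pup esophagus and stomach (-1.39 and -1.01). Of 16 chondroitin and dermatan sulfate enzymes, 7 or 8 had enough UMIs and at most 2 passed 2-fold in either direction. *Csgalnact2*, which starts chondroitin chains, was higher in each region (1.33, 1.49 and 1.20). Of 6 enzymes that build the linker between protein and chain, 2 or 3 had enough UMIs and 0 passed 2-fold. Among 14 signalling partners, of which 13 were in the table and 8 had enough UMIs, 3 were higher and 1 lower in the esophagus, 0 in either direction in the GE-SCJ, and 4 higher in the stomach. *Tgfb2*, one of the TGF-β ligands, was higher in pup esophagus (2.36) and stomach (1.43).

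Stomach over esophagus, the collagens were on the side of *Dcn* before birth. At E15, 4 of 13 were lower, *Col1a1* and *Col1a2* among them (log2 -1.25 and -1.33), and 0 were higher. Of all genes, 2.59% were lower and 2.45% higher at E15. At E19 5 of 13 were lower, with a median of -0.39, and 0 higher, against 3.05% and 4.11% of all genes. In pups 0 of 11 passed 2-fold, where 3.33% of all genes were lower and 2.08% higher. *Lox* was lower in the stomach at E15 and E19 (-1.02 and -1.38). *Chst15*, a chondroitin sulfotransferase, was higher in the stomach (1.91 and 2.13), as was the ligand gene *Bmp4* at E19 and in pups (1.69 and 1.54). From pup to adult esophagus *Lox* was lower (-2.40) while *Pcolce*, which enhances procollagen cleavage, was higher (1.81).

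The genes most like each member were ranked by Pearson's r of log2(CPM + 10) over 55 label, region and stage groups, which share a library and differ in depth. *Dcn* was closest to *Mfap5* (0.91), *Adamts2* (0.90) and *C1qtnf2* (0.89), *Lum* to *Lrrc17* (0.91), *Spon2* (0.90) and *Dnm1* (0.90), and *Bgn* to *Plpp3* (0.93), *Col5a2* (0.92) and *Mxra8* (0.91). *Ogn* was closest to *Srpx* (0.91), *Scarf2* (0.90) and *Ccdc80* (0.90), and *Aspn* to *Rem1* (0.91), *Pi15* (0.90) and *Islr* (0.89). *Prelp* was closest to *Sod3* (0.87), *Fam20a* (0.81) and *Cys1* (0.81), and *Fmod* to *Cpz* (0.79), *Slc26a7* (0.73) and *Mia* (0.67), both from low counts. Over the 10 Stromal groups alone, other genes led: *Tspan11*, *Scara3* and *Colec12* for *Dcn* (0.95 to 0.96), *Gpr137*, *Galnt18* and *Otub2* for *Lum* (0.96), *Unc93b1*, *Ltbp3* and *Myo1c* for *Bgn* (0.97), and *Angptl2*, *Mmp2* and *Olfml2b* for *Aspn* (0.96). For *Ogn* these were *P3h4*, *Cep128* and *Fermt2* (0.89 to 0.92), for *Prelp* *Serpinf1*, *Pcdhgb5* and *Entpd1* (0.98 to 0.99), and for *Fmod* *Cthrc1*, *Adgrb3* and *Shroom2* (0.86 to 0.90). The *Prelp* values rest largely on the adult esophagus, at 396 CPM against 27.2 CPM or less in the other Stromal groups. That group of 31 cells was also the highest Stromal group for *Dcn* (11339 CPM), *Lum* (4159 CPM) and *Bgn* (2779 CPM). Its part in their r values was not tested.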

How the data were processed

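RNA of single cells was captured with the 10x Genomics 3′ kit, and CellPlex tags marked region and stage. The UMI counts per gene and cell were made by the authors with Cell Ranger 6.1.1 (per the submitters' notes) on the 10x mouse reference of mm10, and were deposited without normalization after the authors had filtered cells by genes, UMIs and mitochondrial share, as potential doublets or poor cells. The percent of mitochondrial UMIs of each cell was computed by the authors and deposited with the label and tag. Both lists of tags gave all 7808 cells the same group, and all cells are from 1 library.

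Members, lists and comparisons were chosen with earlier results of these data known. UMIs were summed per label, region and stage (at least 20 cells), and the level is the sum divided by all UMIs of the group, as CPM with exact 95% Poisson intervals. Ratios added 1 UMI to each sum, with exact conditional binomial intervals, and a gene counted as 2-fold different among those with at least 100 UMIs over both sums. With 1 pooled sample per group, no test was run. Beside a sum of 0 stands the level of 3 counts. Shares of cells have exact Clopper-Pearson intervals, after thinning each cell to 5000 UMIs without the shallower cells. Intervals cover counting error only. Named genes are the members, at most 4 genes of each list with the largest absolute log2 ratio in a comparison, and the 3 genes with the highest r per member. *Kera*, *Ecm2*, *Optc* and *Podn* levels by group, and *Chad* and *Chadl* levels by label, were picked after their values were seen. Beyond the authors' filter, doublets were not treated.

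Positions are from GENCODE M21 and promoter sequences from RefSeq (GRCm38.p6), which held 5 of the 7 members. The ratio step was tested on simulated data. Alternatives replaced sums by the mean of the CPM of single cells, changed the library size, cell filter, minimum UMIs, fold, added UMIs and thinning depth, left out the 1% of cells with most UMIs of a gene, took cells by marker genes, or subtracted the level of immune and epithelial cells. The alternatives without adult cells near fetal ones, without *Pdgfra*-positive Smooth Muscle cells and without the 3 cells with most UMIs of a gene were chosen after seeing the data. Scripts ran under Python 3.11.15 with scikit-learn 1.9.0, scipy 1.17.1, numpy 2.4.6, matplotlib 3.10.9 and pandas 2.3.3.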

Additional observations from a re-analysis of the deposited data

Results flagged for a closer look

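The change from E15 to pup in Stromal cells had opposite signs in different regions for 3 members, though the esophageal value of *Lum* was small. With 1 pooled sample per group, these differences were not tested. For *Dcn*, the log2 ratio of pup over E15 was -0.37 in the esophagus, 0.88 in the GE-SCJ and 1.40 in the stomach, so the esophagus was lower by 1.25 than the GE-SCJ (difference -1.25) and by 1.77 than the stomach (difference -1.77). For *Lum*, the esophagus had 0.14 (0.0025 to 0.28), the GE-SCJ -0.78 and the stomach -0.56, which are differences of 0.92 and 0.70. Without the 3 pup cells richest in *Lum*, its pup esophageal level was 749 CPM (682 to 821). With all cells, E15 had 739 CPM (712 to 767), so a rise of *Lum* in the esophagus cannot be read. For *Ogn*, the esophagus had -0.88 and the stomach 0.50, a difference of -1.39. In the GE-SCJ *Ogn* was at 345 CPM at E15 and 323 CPM in pups. Of the 184 *Ogn* UMIs of the pup stomach, 56 were in 3 of 78 cells. The stomach ratio was not recomputed without these cells, so its sign may rest on few cells.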

How the results depend on the processing

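The 16 member ratios between stages and regions that passed 2-fold had the same sign in 119 of 120 recomputed values and stayed past 2-fold in 118, and the 38 such Stromal over Smooth Muscle ratios in 307 of 307. The exceptions were *Ogn* in adult over pup esophagus, at -0.000941 on the log2 scale without the 3 cells with most of its UMIs in each group, and at 0.74 without the 1% of cells with most of them. These ratios were picked for passing 2-fold in the same data, and some alternatives could change little. Leaving out adult cells near fetal ones changed no ratio. Adding 0.5 UMI changed stage and region ratios by -0.019 to 0.0038. Subtracting the level of immune and epithelial cells changed Stromal over Smooth Muscle ratios by -0.041 to 4.41. The counts of unchanged signs are therefore no separate support for the ratios. Sizes were less stable: 60 of 413 recomputed Stromal over Smooth Muscle ratios moved beyond their counting interval, by up to 4.41 on the log2 scale after subtracting the level of immune and epithelial cells, up to 2.73 with Smooth Muscle cells that had no *Pdgfra* UMI and up to 1.58 without the 1% of cells with most UMIs. Of 262 recomputed stage and region ratios, 27 moved beyond their counting interval and 1 changed sign. Some member counts moved. With a log2 ratio of at least 2 as the limit, the members higher in pups than at E15 were 1 in the GE-SCJ and 1 in the stomach. At this limit those lower in the stomach than in the esophagus were 1 at E19 (*Prelp*), and pups had 0 higher and 0 lower between these regions. At the same limit 2 were higher in the adult than in the pup esophagus, and 0 were higher in Stromal than in Smooth Muscle cells in every group. With the mean of the CPM of single cells, 1 member was lower in pup than in E15 esophagus, 2 were lower in the stomach at E15 and 1 was lower in the adult esophagus. That last count was also 1 without the 3 cells with most UMIs of the gene, without the 1% of cells with most UMIs of the gene and with the library size without mitochondrial, ribosomal and hemoglobin genes. After subtracting the level of immune and epithelial cells, 2 members were higher in pup than in E15 esophagus. The cause of these moves was not tested, apart from the stricter fold. The share of all genes past 2-fold moved in 23 of 28 recomputed values with another minimum of UMIs, from 1.27% to 28.8%, and 93 of 126 shares of cells moved with thinning depth or the UMIs required. Family composition moved in 0 of 70, and the 3 most similar genes changed for 12 of 14 sets with Spearman's rho. No paired analysis was possible because each region and stage is 1 pooled sample. Depth limits *Fmod* and *Prelp*, whose Stromal sums were mostly below 100 UMIs.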

Other observations

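The adult GE-SCJ held 15 Stromal and 16 Smooth Muscle cells, too few for the comparisons above. Its Stromal cells were at 2252 CPM of *Dcn* (1989 to 2541), 1118 CPM of *Lum*, 538 CPM of *Bgn*, 589 CPM of *Ogn* and 913 CPM of *Aspn*. Of these 15 cells, 8 had mostly fetal nearest neighbours, and without them the other 7 cells were at 2898 CPM of *Dcn* (2318 to 3578), 1752 CPM of *Lum*, 909.7 CPM of *Bgn*, 101 CPM of *Ogn* (3 UMIs) and 2358 CPM of *Aspn*. In the adult esophagus, 0 of 31 Stromal and 0 of 30 Smooth Muscle cells had such neighbours. *Prelp* in adult esophageal Smooth Muscle cells was at 228 CPM (162 to 311) from 39 UMIs in 17 of 30 cells, against 3.53 to 26.2 CPM in the esophageal Smooth Muscle groups before the adult stage, and pericyte markers in these adult cells summed to 4020 CPM.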
